A study of Mus musculus with 12 samples.

Results

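The genes described here carry bone morphogenetic protein (BMP) signals in mouse embryonic stem cells (ESCs). They are 10 genes of the 18412 in the deposited tables: the ligand genes Bmp2, Bmp4, Bmp7 and Bmp8b, the receptor genes Bmpr1a and Bmpr2, the signal carrier Smad1, and the target genes Id1, Id2 and Id3. All 10 were found by symbol in the exonic and the intronic table of both knockouts. The genes were picked with their knockout against wild-type values known, so their own differences are a description and carry no test. Polyadenylated RNA was sequenced from 12 libraries in 4 groups of 3: Dicer1-/- cells with TFC cells as their wild type, and Dgcr8-/- cells with V6.5 cells as theirs. Dicer1 encodes the enzyme that releases mature microRNAs from their hairpins, and Dgcr8 the partner that guides Drosha to the longer primary transcripts, so a line without either lacks most microRNAs. All 4 lines were cultured in serum and leukaemia inhibitory factor on gelatin, with no feeder layer named. Each contrast sets 1 line against another, and effects of the lost gene and of other differences between those lines cannot be told apart.

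BMPs are secreted dimers of the TGF-β superfamily. They join type I receptors such as Bmpr1a with type II receptors such as Bmpr2, and the activated type I kinase phosphorylates Smad1 and its relatives, which enter the nucleus with Smad4. The Id genes are classical direct targets: Id proteins bind E proteins and keep them off DNA, and in mouse ESCs grown with leukaemia inhibitory factor, BMP acting through Id genes is known to help hold back neural differentiation.

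Values are normalised reads, which are reads divided by a size factor of their library. The tables give group means, from which the reads of each library were recovered, and the 3 libraries of a group are called A, B and C. Exonic depth was 14168390 to 28061570 reads in Dicer1-/-, 12649791 to 30637811 in TFC, 17461386 to 29559513 in Dgcr8-/- and 5889725 to 16735682 in V6.5, where library A was the shallowest. Exonic library A is, by definition, the library least correlated with the other 2 of its group. Intronic library A is the one whose deviations followed those of exonic A (r of 0.277 to 0.417, where the other 2 had negative values), and in Dicer introns it was the most correlated of its group. The A libraries deviated from their group means together across genes in every pair of groups (r of 0.611 to 0.696, a description over 11845 to 12191 genes), so results are also given for A alone and for B and C alone. The labels name no batch. ESC markers were present in all groups: Pou5f1, Nanog and Sox2 averaged 15642, 12344 and 16618 exonic reads in Dgcr8-/-, against 9585, 7144 and 7854 in V6.5. Dicer1 itself averaged 1590.3 exonic reads in Dicer1-/- and 3239 in TFC (limma adjusted p = 0.0759), and Dgcr8 averaged 804 in Dgcr8-/- and 2528 in V6.5 (limma adjusted p = 0.11). These reads cover all exons and do not check the deleted part, which the labels do not name.

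Per kilobase of exon, Id2 had the highest level of the 10 genes in every group, with means of 3631 normalised reads per kilobase in Dicer1-/-, 984 in TFC, 1254 in Dgcr8-/- and 946 in V6.5. Its range over libraries was clear of the next gene in Dicer1-/- alone. Bmpr1a and Id1 held the next places in all 4 groups, with ranges that overlapped each other. In TFC and V6.5 both also overlapped that of Id2, and in Dgcr8-/- Id1 did and Bmpr1a did not. Bmpr1a stood at 754 normalised reads per kilobase in Dicer1-/-, 623 in TFC, 608 in Dgcr8-/- and 651 in V6.5. Id3, Bmpr2 and Smad1 followed with overlapping ranges, joined by Bmp4 in both wild types and by Bmp8b in V6.5. Bmp4 stood at 4.23 normalised reads per kilobase in Dicer1-/-, 125 in TFC, 13.9 in Dgcr8-/- and 281 in V6.5. The other ligand genes were at the low end: Bmp8b, Bmp7 and Bmp2 had 50.2, 18.7 and 0 normalised reads per kilobase in Dicer1-/-, against 15.1, 33.5 and 0.70 in TFC, and 22.5, 9.32 and 0 in Dgcr8-/-, against 145, 21.4 and 62.0 in V6.5. Bmp2 came last in 3 groups and Bmp7 in V6.5.

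Of the ligand genes, Bmp4 was lower in both knockouts than in their wild types, Bmp2 and Bmp8b were lower in Dgcr8-/- than in V6.5, and Bmp8b was higher in Dicer1-/- than in TFC. Over all 10 genes in exons, every Dicer1-/- library stood above every TFC library for 3 (Bmp8b, Bmpr2, Id2) and below for 1 (Bmp4). For comparison, 11.7% of the 13153 genes tested stood wholly above and 9.63% wholly below. In the Dgcr8 pair 0 of the 10 stood wholly above and 3 wholly below (Bmp2, Bmp4, Bmp8b), beside 10.6% and 11.9% of 12705 genes. As the genes were picked on this contrast, nothing is read from these counts. Genes averaging under 10 reads in a pair were filtered out, which kept 9 of the 10 in Dicer exons (all but Bmp2) and 10 of 10 in Dgcr8 exons.

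**Figure D1:**
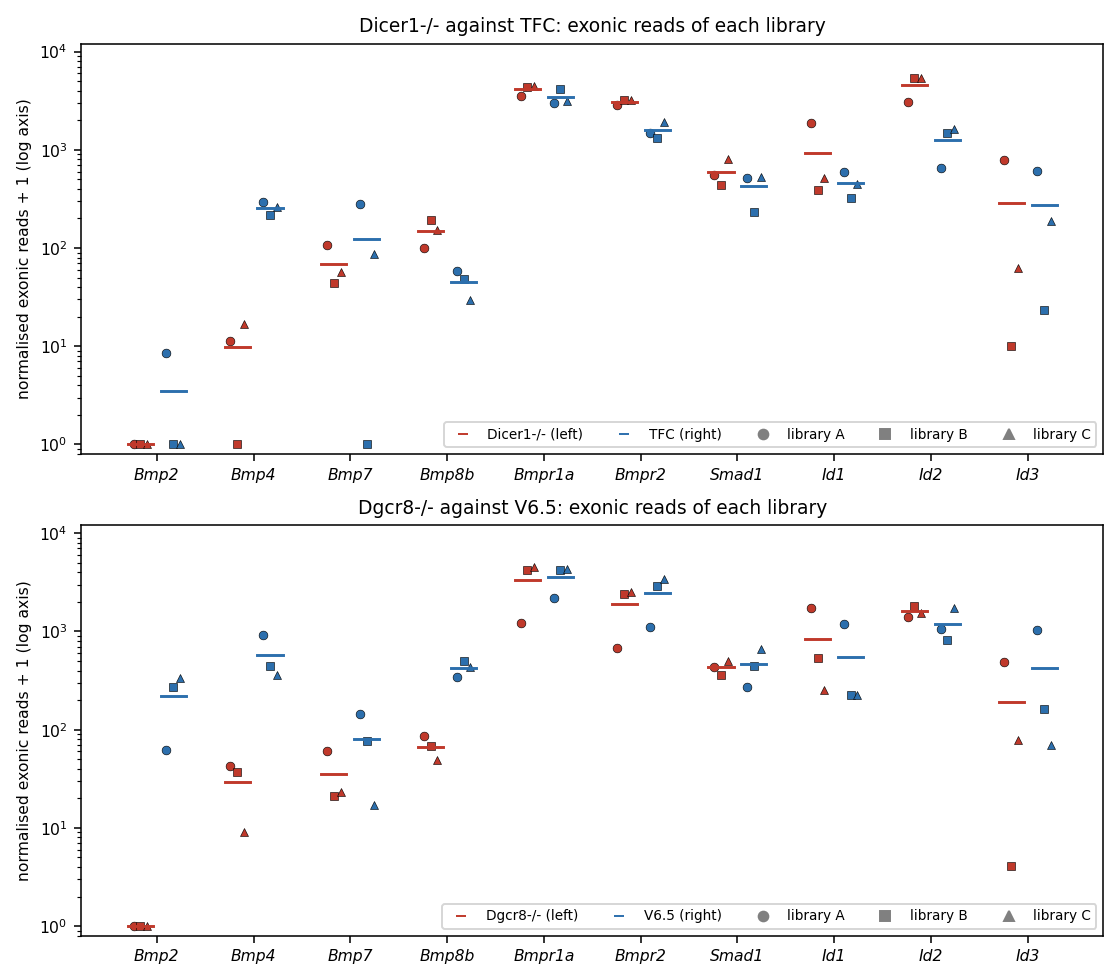
Normalised exonic reads plus 1 of the 10 genes in each library (log axis), the Dicer1-/- and TFC libraries above and the Dgcr8-/- and V6.5 libraries below, knockout in red to the left of wild type in blue. Bars are the deposited group means and symbols the libraries A, B and C; Bmp4 sits lower in both knockouts, Bmp2 is at 0 in every knockout library, and Id1 and Id3 are highest in library A of each group.

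Bmp4 encodes a ligand that induces mesoderm in the early embryo (mm10 chromosome 14, 46383520 to 46390669, minus strand; ENSMUSG00000021835). It had 10.2, 0 and 15.9 normalised exonic reads in Dicer1-/- libraries A, B and C, against 295.3, 215 and 259 in TFC. The Dgcr8 pair gave 42.1, 35.7 and 7.99 reads in Dgcr8-/-, against 924, 447 and 363 in V6.5. The groups were far apart in both pairs, and the highest knockout library was still many times under the lowest wild-type one. The log2 fold change, knockout minus wild type on log2(value + 1), was -5.47 (SE 1.28) in the Dicer pair and -4.46 (SE 0.83) in the Dgcr8 pair, with ratios of wild-type to knockout mean of 29.4 and 20.2. The SE here and for the other 9 genes is that of a difference of 2 means of 3 libraries. In a bulk sample, fewer cells with a transcript and less of it per cell cannot be told apart.

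In introns Bmp4 was listed at 0 in all 3 Dicer1-/- libraries, against 15.2, 0 and 27.9 reads in TFC, and its mean over these 6 libraries, 7.20, is under the filter. It had 0, 12.6 and 0 intronic reads in Dgcr8-/- and 53.3, 36.4 and 69.9 in V6.5, again with no overlap (log2 fold change -4.46, SE 1.28). Intronic libraries B and C could not be matched to exonic B and C. Intronic reads of Bmp4 were thus lower along with its exonic reads in the Dgcr8 pair. Bmp4 overlaps the genes Gm15217 and Gm15222 on the other strand and it is not known here whether reads were counted by strand. Its promoter sequence is shown because exonic and intronic reads of the gene were low together. It runs from 250 bases before to 50 after the start (RefSeq, GRCm38.p6, chr14:46390620-46390919, minus strand), with the short Smad motif GTCT or its reverse complement AGAC in capitals, here at -222 and 36 from the start.
Bmp4 promoter: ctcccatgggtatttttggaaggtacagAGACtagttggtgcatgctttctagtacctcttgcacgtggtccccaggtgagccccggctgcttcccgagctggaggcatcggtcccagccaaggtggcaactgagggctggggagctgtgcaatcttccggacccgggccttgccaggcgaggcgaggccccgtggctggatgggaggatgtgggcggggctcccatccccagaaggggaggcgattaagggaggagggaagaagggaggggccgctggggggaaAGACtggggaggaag

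Bmp2 encodes a close relative of Bmp4 (chromosome 2, 133552159 to 133562885, plus strand; ENSMUSG00000027358). It was at 0 in every knockout library of either pair. In TFC it had 7.49, 0 and 0 normalised exonic reads, so that the Dicer pair shows no difference that could be read. The V6.5 libraries had 60.9, 270.4 and 332 reads, with library A the lowest. V6.5 libraries also had 0, 34.0 and 32.4 intronic reads, against 0 in all 3 Dgcr8-/- libraries. No fold is given against a group listed at 0.

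Bmp8b encodes a ligand known from germ cell formation in the embryo (chromosome 4, 123105165 to 123132099, plus strand; ENSMUSG00000002384). It had 99.7, 193 and 151 normalised exonic reads in Dicer1-/-, against 57.2, 47.5 and 28.8 in TFC. The order turned in the Dgcr8 pair, with 84.3, 66.8 and 48.0 in Dgcr8-/- and 343, 503 and 434 in V6.5. The 2 pairs thus differed in opposite directions, each without overlap: the log2 fold change was 1.72 (SE 0.40) in the Dicer pair and -2.68 (SE 0.28) in the Dgcr8 pair. Within library A alone it was 0.79 and -2.01, and within B and C 2.18 and -3.02. Their difference was not tested, as the 2 tables were normalised separately. Bmp8b shares 210 of its 2891 stretches of 50 exonic bases (7.26%) with Bmp8a, its neighbouring copy, and it overlaps Oxct2b on the same strand and Ppie on the other, so its reads are uncertain. Bmp8a had 38.3, 40.9 and 85.0 exonic reads in Dicer1-/-, against 4.28, 0 and 0 in TFC, and 36.7, 28.0 and 19.2 in Dgcr8-/-, against 25.4, 88.9 and 38.3 in V6.5. Intronic reads of Bmp8b were at most 23.2 in any library, and the groups overlapped in both pairs.

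Bmp7 encodes a ligand best known from kidney and eye development (chromosome 2, 172868012 to 172940321, minus strand; ENSMUSG00000008999). It had 107, 43.2 and 55.8 normalised exonic reads in Dicer1-/-, against 283, 0 and 86.3 in TFC, and 60.1, 20.2 and 22.4 in Dgcr8-/-, against 145, 75.3 and 15.9 in V6.5. The groups overlapped in both pairs, and library A was the highest of each group. The TFC library at 0 set the sign of the Dicer log2 fold change, which was 1.15 (SE 2.51) over 3 libraries a group and -1.40 within library A, while the ratio of means was 0.557.

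Markers of other cell types differed beside the low ligand genes of Dgcr8-/-. Summed over 8 mesoderm and primitive streak markers, Dgcr8-/- libraries had 148 to 246 exonic reads and V6.5 libraries 371 to 4716. The lowest V6.5 value was that of library A, which had the lowest Bmp2 reads of that group but the highest Bmp4 reads, 924 against 447 and 363 in B and C. T, the founding T-box factor of mesoderm, was at 0 in all 3 Dgcr8-/- libraries and at 66.0, 2021 and 2243 in V6.5 (limma adjusted p = 0.0328), Wnt3 was called lower, Mixl1 averaged 20.5 in Dgcr8-/- and 434 in V6.5 without a call, and Mesp1 was at 0 in all 6. Lhx1 was also at 0 in every Dgcr8-/- library. Summed over 8 trophectoderm markers the ranges were 1418 to 2655 in Dgcr8-/- and 10821 to 14516 in V6.5, with Cdx2, Krt8 and Krt18 called lower and Tfap2c at means of 1269 in Dgcr8-/- and 1294 in V6.5. The sums over 9 fibroblast or feeder markers were 492 to 1364 in Dgcr8-/- and 5683 to 12991 in V6.5, with Col1a1, Col1a2, Acta2 and Tagln called lower. Much of the V6.5 sum was Tagln and Acta2, with means of 4025 and 2681 there. Dcn alone of this list averaged higher in Dgcr8-/-, at 38.2 against 26.6 in V6.5, and its groups overlapped. Over 6 primitive endoderm markers the sums were 862 to 1366 in Dgcr8-/- and 1046 to 2163 in V6.5, with Dab2 called lower, and Lama1 and Gata4 averaged 892 and 163 in Dgcr8-/- and 689 and 130.3 in V6.5. Elf5 and Lum were at 0 in every Dgcr8-/- library. The 6 ESC markers summed to 53916 to 78709 in Dgcr8-/- and 21377 to 64337 in V6.5, and limma and limma-voom called 0 of them (2 and 3 at an unadjusted p under 0.05). In all, limma called 10 of 31 distinct markers of the 5 lists, all 10 lower in Dgcr8-/-. Over all genes it called 0.779% higher and 0.551% lower. Of the 31 markers, limma-voom called 3. Without library B or C of either group, 0 genes of the whole table were called, these markers included. Of 36 distinct markers, 14 stood wholly below V6.5 and 2 wholly above (Nanog and Sox2), beside 11.9% and 10.6% of 12705 genes. The 36 were not filtered by level, while the 12705 genes were. The part of the marker differences in the ligand values was not tested.

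**Figure D2:**
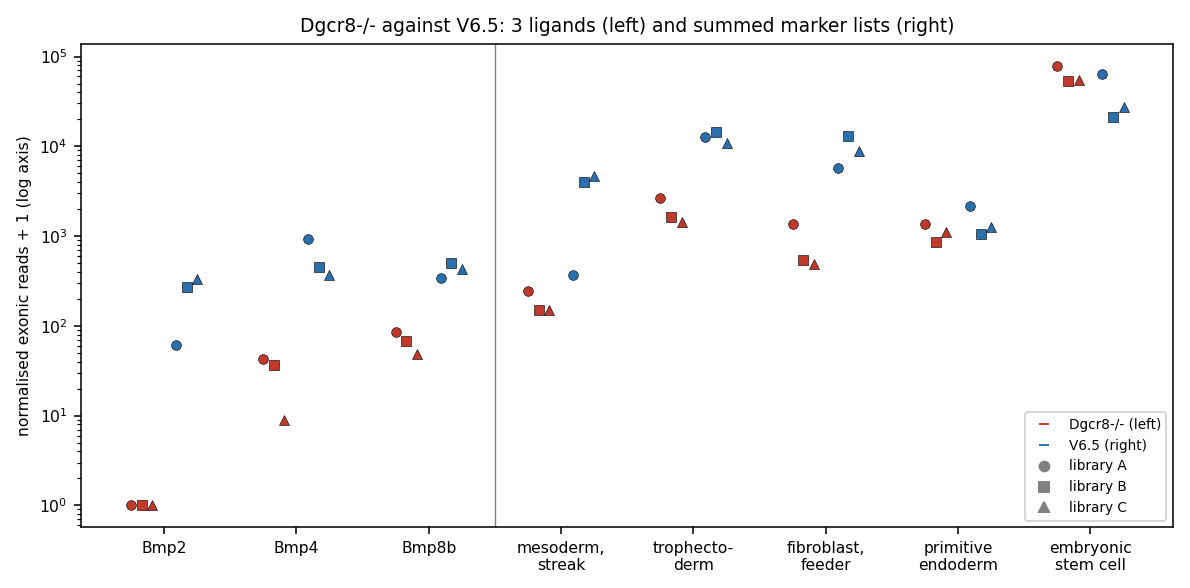
Normalised exonic reads plus 1 (log axis) of Bmp2, Bmp4 and Bmp8b and, right of the line, summed reads of 5 marker lists, for Dgcr8-/- libraries (red, left) and V6.5 libraries (blue, right), with symbols for libraries A, B and C. The mesoderm, trophectoderm and fibroblast sums are lower in every Dgcr8-/- library, as the 3 ligands are, and V6.5 library A is the lowest of its group for Bmp2 and the mesoderm sum and the highest for Bmp4.

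Summed marker lists overlapped between the groups of the Dicer pair, while the values of Bmp4 and of some single markers did not. Mesoderm markers summed to 225 to 380 reads in Dicer1-/- and 319 to 486 in TFC. Trophectoderm markers summed to 3801 to 5622 in Dicer1-/- and 1943 to 5859 in TFC, fibroblast markers to 380 to 593 in Dicer1-/- and 388 to 748 in TFC, and primitive endoderm markers to 1164 to 1580 in Dicer1-/- and 1056 to 2430 in TFC. Both limma and limma-voom called 0 of 26 distinct markers (6 and 5 at an unadjusted p under 0.05). Over all genes limma called 1.03% higher and 0.228% lower. Of 35 distinct markers, 5 stood wholly above TFC (Nanog, Evx1, Krt8, Krt7 and Tagln) and 1 wholly below (Thy1). Of the 13153 genes tested, 11.7% stood wholly above and 9.63% wholly below. Those genes were filtered by level, while the 35 markers were not. Krt8 had 493 to 762 reads in Dicer1-/- and 125 to 251 in TFC, Tagln 291 to 516 in Dicer1-/- and 62.5 to 125 in TFC, and Evx1 55.8 to 141 in Dicer1-/- and 0 in all TFC libraries. Thy1 had 9.09 to 44.7 in Dicer1-/- and 138 to 219 in TFC. Much of the trophectoderm sum was Tfap2c, with means of 3026 in Dicer1-/- and 2680.4 in TFC, and much of the primitive endoderm sum Lama1, with 1122 in Dicer1-/- and 1426 in TFC. Of the others highest in their lists, Krt18, Eomes and Gata4 averaged 627, 178 and 103 in Dicer1-/- and 217, 296 and 48.6 in TFC, while Mixl1, Col1a1 and Dab2 averaged 25.2, 20.4 and 168 in Dicer1-/- and 53.9, 59.5 and 329 in TFC. Sox2, Pou5f1 and Nanog averaged 21414, 19209.9 and 18692.2 in Dicer1-/- and 23129, 16642.3 and 14970.5 in TFC. The part of these markers in the values of the 10 genes was not tested. At 0 in all Dicer1-/- libraries were Mesp1, Fgf8, Col1a2, Col3a1, Postn, Lum and Sox17, and of these Mesp1 and Sox17 were also at 0 in all TFC libraries. Elf5, Foxa2 and Lhx1 averaged 9.35, 2.98 and 1.28 in Dicer1-/- and, like Evx1, were at 0 in all TFC libraries.

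The receptor Bmpr2 was higher in Dicer1-/- than in TFC, while Bmpr1a and Smad1 overlapped between the groups of both pairs. Bmpr2 is the main type II receptor for BMPs, a kinase with a long cytoplasmic tail (chromosome 1, 59763400 to 59879014, plus strand; ENSMUSG00000067336). It had 2865, 3181 and 3211 normalised exonic reads in Dicer1-/-, against 1500, 1332 and 1920.1 in TFC. Every knockout library was above every wild-type one, and the fold was nearly the same in library A and in B and C (log2 fold change 0.93 and 0.998, 0.98 over all with SE 0.16). The Dgcr8 pair gave 678, 2427 and 2549 in Dgcr8-/- and 1109.6, 2886 and 3397 in V6.5, where library A was low in both groups and the groups overlapped (-0.46, SE 0.80). Intronic reads of Bmpr2 overlapped in both pairs, at 87.5, 80.9 and 45.2 in Dicer1-/- against 65.0, 0 and 211 in TFC.

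The 3′ untranslated region of Bmpr2 is 8529 bases in its longest annotated form, longer than that of 99.5% of the 17855 genes with one. Seeds of ESC microRNAs were searched in the longest 3′ untranslated region of all 10 genes, as a match to bases 2 to 8 of the microRNA (GENCODE M21 transcripts, mm10). The sites and the microRNAs are shown because both knockout lines lack the processing that makes these microRNAs. Examples of each seed group are given, from RefSeq (GRCm38.p6), with the seed in capitals.
mmu-miR-294-3p: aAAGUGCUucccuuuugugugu
mmu-miR-302b-3p: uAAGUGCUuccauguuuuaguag
mmu-miR-17-5p: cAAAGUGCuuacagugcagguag
mmu-miR-26a-5p: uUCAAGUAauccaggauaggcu
mmu-let-7a-5p: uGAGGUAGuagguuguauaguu
The first 2 share a seed with miR-291a and miR-295, and the seed of miR-17 holds the letters AAGUGC of that seed, shifted by 1 base.

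Bmpr2 held 2 matches to the miR-17 seed group and 1 to miR-26, and Bmp8b 1 match to the miR-294 and miR-302 seed and 1 to let-7. No other gene of the 10 held a match of this kind. The stretches below are the plus strand of mm10, with the matched bases in capitals.
Bmpr2, miR-17 group, chr1:59870686-59870692: tttttaagttttGCACTTTtgtttagtc
Bmpr2, miR-17 group, chr1:59874362-59874368: tggtatcacactGCACTTTtactctgtt
Bmpr2, miR-26, chr1:59876040-59876046: gaaaattgactgTACTTGAatttaccac
Bmp8b, miR-294 and miR-302 group, chr4:123125028-123125034: acttgtaatcttAGCACTTgggaagctg
Bmp8b, let-7, chr4:123125803-123125809: ccaagctccaacCTACCTCcactgcacc
Among all genes with a 3′ untranslated region, 15.8% held the miR-294 and miR-302 match, 12.7% the miR-17 match, 10% the miR-26 match and 10.4% the let-7 match, so 1 gene in 10 is near these shares. These shares take no account of length, and the 8529 bases of Bmpr2 stand beside a median of 1114. A match is a description and not a shown site. The part of the matches in the knockout values was not tested, as the genes were picked on those values. Id2 held none in its 785 bases.

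Bmpr1a, the type I receptor that ESCs use for Bmp2 and Bmp4 (chromosome 14, 34410734 to 34503341, minus strand; ENSMUSG00000021796), had 3575, 4380.0 and 4435 normalised exonic reads in Dicer1-/- and 3001, 4136 and 3112 in TFC. The values were 1224, 4251 and 4522 in Dgcr8-/- and 2199, 4198 and 4307 in V6.5. The groups overlapped in both pairs, and library A was the lowest of each of the 4 groups. The log2 fold change was 0.28 (SE 0.18) in the Dicer pair. That of the Dgcr8 pair was -0.25 (SE 0.69), with -0.84 within library A and 0.04 within B and C. Its intronic reads overlapped in both pairs, at 152, 42.8 and 73.4 in Dicer1-/- and 94.5, 189 and 176 in TFC.

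Smad1, which carries the signal to the nucleus (chromosome 8, 79338395 to 79399518, minus strand; ENSMUSG00000031681), had 550, 434 and 802 normalised exonic reads in Dicer1-/- and 522, 233 and 526 in TFC. It had 436, 360 and 504 in Dgcr8-/- and 269, 447 and 663 in V6.5. The groups overlapped, with log2 fold changes of 0.53 (SE 0.47) and -0.0048 (SE 0.40). Within library A alone the Dgcr8 value was 0.70, and within B and C -0.35. Intronic reads of Smad1 averaged 184 in Dicer1-/- and 230.4 in TFC, and 122 in Dgcr8-/- and 136 in V6.5, and these overlapped too.

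Among the target genes, Id2 was higher in Dicer1-/- than in TFC, in exons and in introns, while Id1 and Id3 overlapped between the groups of both pairs and were highest in library A of each group. Id2 (chromosome 12, 25093799 to 25097140, minus strand; ENSMUSG00000020644) had 3087, 5352 and 5415 normalised exonic reads in Dicer1-/-, against 645, 1483 and 1628 in TFC. All 3 knockout libraries were above all 3 of the wild type (log2 fold change 1.95, SE 0.50, ratio of means 3.69), and the fold was of like size within library A (2.26) and within B and C (1.79). Its intronic reads were 110.1, 143 and 62.1 in Dicer1-/- and 12.2, 48.9 and 25.2 in TFC, also without overlap, with a log2 fold change of 1.96 (SE 0.66). Over 3 libraries a group, exonic and intronic reads of Id2 thus differed by about the same factor (ratio of intronic means 3.66). The intronic log2 fold change was 3.07 within library A and 1.40 within B and C, so the 2 read classes were less alike there.

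Between Dgcr8-/- and V6.5, Id2 overlapped: it had 1418, 1824 and 1545 exonic reads in Dgcr8-/- and 1061, 826 and 1725 in V6.5 (log2 fold change 0.47, SE 0.33). Its intronic reads there were 40.1, 24.1 and 4.63 in Dgcr8-/- and 29.6, 4.64 and 7.48 in V6.5. The Id2 promoter is shown for the joint difference of exonic and intronic reads in the Dicer pair (RefSeq, GRCm38.p6, chr12:25096043-25096342, minus strand), with the GC-rich Smad motif GGCGCC at -231 from the start and AGAC at -23 in capitals.
Id2 promoter: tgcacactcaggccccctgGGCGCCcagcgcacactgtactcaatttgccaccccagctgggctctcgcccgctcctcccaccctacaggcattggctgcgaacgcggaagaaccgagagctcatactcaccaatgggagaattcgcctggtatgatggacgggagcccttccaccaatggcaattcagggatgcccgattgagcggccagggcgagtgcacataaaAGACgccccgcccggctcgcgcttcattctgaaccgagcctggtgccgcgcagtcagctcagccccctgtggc

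RefSeq promoters were matched for 7 of the 10 genes (Bmpr2, Bmp8b, Id3, Smad1, Id2, Bmpr1a and Bmp4). The 6 letters GGCGCC, which read the same on both strands, were in 3 of these (Bmpr2, Id2 and Bmpr1a), against 11.9% of 32851 promoters. GTCT on either strand was in 5 of the 7 (Bmp8b, Id3, Id2, Bmpr1a and Bmp4), with 3 matches in Id3, against 88% of all promoters. The letters of the 2 motifs cannot overlap each other. Where letters are missing from this window, nothing follows about Smad binding.

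Id1 (chromosome 2, 152736251 to 152737410, plus strand; ENSMUSG00000042745) had 1875, 391 and 513 normalised exonic reads in Dicer1-/- and 597, 323 and 450.2 in TFC. It had 1736, 541 and 253 in Dgcr8-/- and 1188, 225 and 223 in V6.5. Library A was the highest of each group, and the groups overlapped, with log2 fold changes of 0.70 (SE 0.74) and 0.66 (SE 1.14). With 1 library left out the Dicer log2 fold change ran between 0.016 without Dicer1-/- library A and 1.15 without Dicer1-/- library B, and the Dgcr8 one between -0.08 without Dgcr8-/- library A and 1.46 without V6.5 library A. Id3 (chromosome 4, 136143497 to 136145755, plus strand; ENSMUSG00000007872) had 786, 9.09 and 61.1 in Dicer1-/- and 602, 22.5 and 188 in TFC, and 491, 3.11 and 78.3 in Dgcr8-/- and 1039, 161 and 68.5 in V6.5. Its libraries within a group spread over a far wider range than the difference between the groups, which overlapped (log2 fold changes -0.82, SE 2.28, and -2.06, SE 2.32). With 1 library left out these ran between -2.47 without Dicer1-/- A and 0.67 without Dicer1-/- B, and between -3.65 without Dgcr8-/- A and -0.20 without Dgcr8-/- B.

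Id1 and Id3 were highest in library A of both knockout and wild-type groups. Id3 was higher in A than the mean of B and C by 4.97 on the log2 scale in Dicer1-/-, 3.18 in TFC, 4.77 in Dgcr8-/- and 3.29 in V6.5, more than 98.5%, 89.8%, 98.5% and 95.3% of the genes of those groups. Id1 was higher in A by 2.06, 0.65, 2.23 and 2.40 in the same order of groups, more than 88.8%, 61.4%, 88.8% and 90.7% of genes. Bmp7 was likewise highest in A in all 4. Bmpr1a was lowest in A in all 4 groups (-0.30, -0.26, -1.84 and -0.95), and Bmpr2 was low in A in Dgcr8-/- and V6.5 (-1.87 and -1.50). Id2 was low in A in Dicer1-/- and TFC (-0.80 and -1.27). As a background, 33.6% of the 11436 genes at or above the minimum in all 4 groups were higher in A than the mean of B and C in every group. In every group 27.1% were lower in A, and 14% were higher by more than 1 on the log2 scale.

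Transcript length differed with this pattern. Genes under 1000 exonic bases, which include Id1 and Id3 (934 and 953 bases), had a median of 0.74 for A minus B and C in Dgcr8-/- and 0.56 in V6.5. Genes of 10000 bases or more, which include Bmpr2 (11087 bases), had -0.77 in Dgcr8-/- and -0.43 in V6.5. In the Dicer pair the medians of the same 2 classes were 0.15 and 0.02 in Dicer1-/- and 0.24 and 0.02 in TFC, a smaller difference. Id3 stood above the upper quartile of its length class in all 4 groups. Id2 (1272 bases) went the other way, at -0.80 in Dicer1-/-, -1.27 in TFC, -0.24 in Dgcr8-/- and -0.17 in V6.5. Genes of 1000 to 1500 bases had medians of 0.15, 0.30, 0.57 and 0.47 in the same order. Id2 lay under the lower quartile of that class in Dicer1-/- and TFC. The part of length in the values of these genes was not tested.

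**Figure D3:**
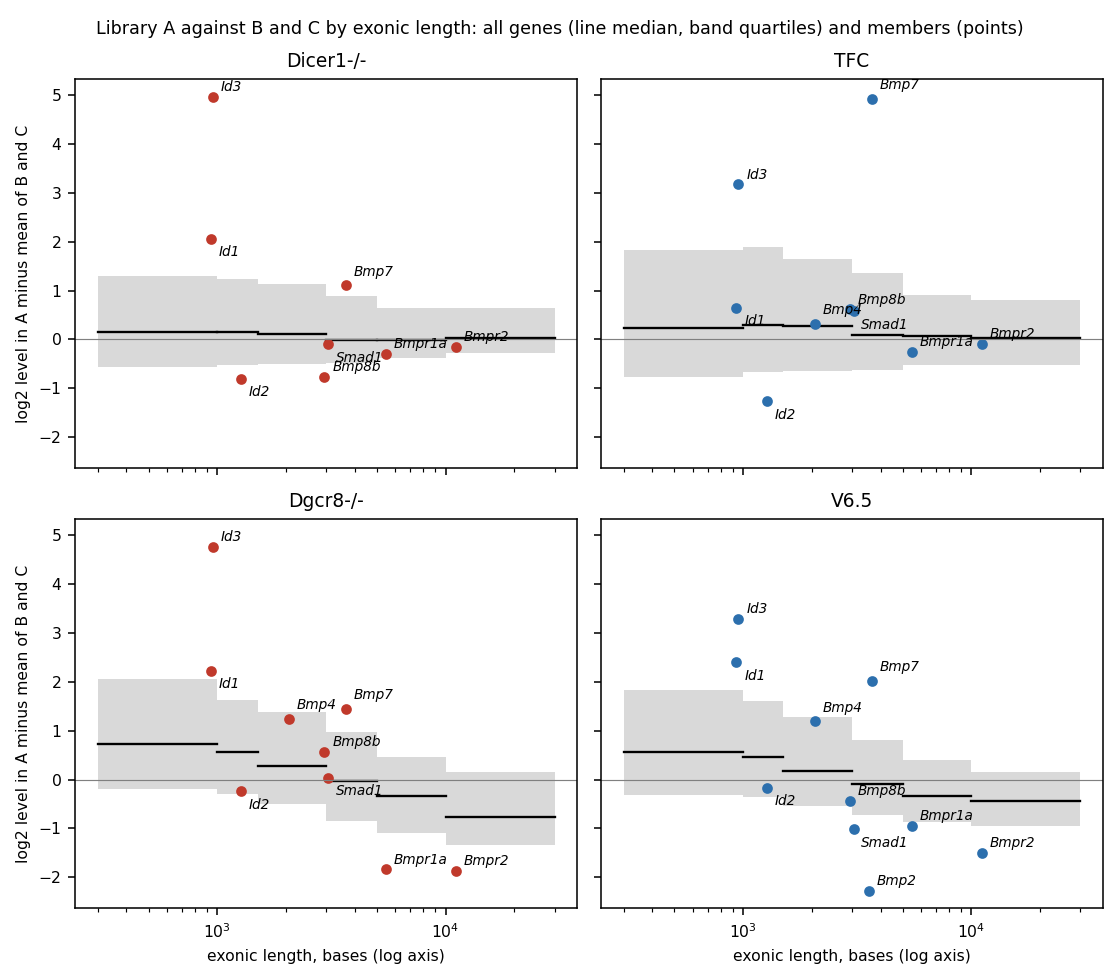
Difference on the log2 scale between library A and the mean of B and C against exonic length (log axis, bases) in the 4 groups, Dicer1-/- left of TFC and Dgcr8-/- left of V6.5. Black lines are medians and grey bands quartiles of all genes in 6 length classes, and points are those of the 10 genes with a value. Id3 lies above its band in all 4 panels and Bmpr2 at the lower right in the Dgcr8 pair. Id2 lies below the median line of its class in all 4.

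Restricting each contrast to like libraries changed the sign of some of the differences and not of others. The log2 fold change within A and that within B and C differed in sign, or 1 of them was 0, for 3 of the 10 genes in Dicer exons and 2 in Dgcr8 exons. Bmp4, Bmpr2, Bmp8b and Id2 in Dicer exons, and Bmp2, Bmp4 and Bmp8b in Dgcr8 exons, had groups that did not overlap. Their sign in A and in B with C was thus fixed in advance, and nothing is read from it. Of the genes that overlapped, Bmpr1a, Smad1 and Id1 kept 1 sign in Dicer exons. In Dgcr8 exons Bmp7, Bmpr2, Id1, Id2 and Id3 did. In introns 1 of 10 genes stood wholly above TFC (Id2) and 0 below, beside 9.27% and 7.99% of 11625 genes, and 0 stood wholly above V6.5 and 1 below (Bmp4), beside 9.61% and 10.1% of 10748 genes. Of the 10 genes, 6 passed the filter in Dicer introns and 9 in Dgcr8 introns, and signs differed between A and B with C, or 1 value was 0, for 3 and 5 of the 10. Intronic reads of the small Id1 and Id3 genes did not exceed 38.5 in any library.

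**Figure D4:**
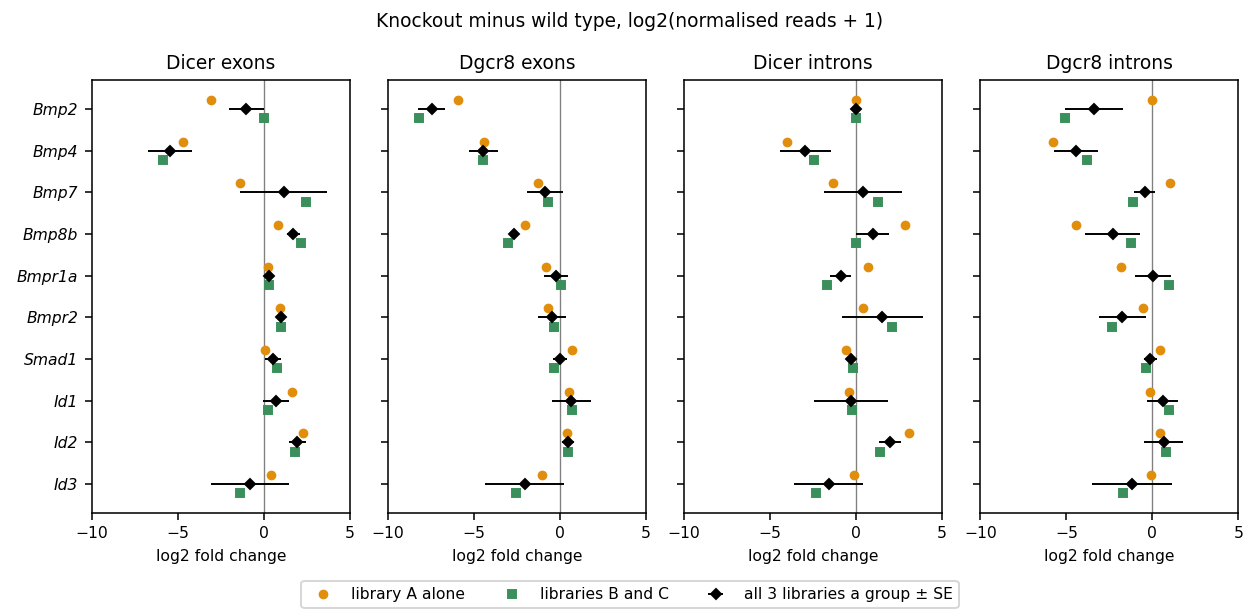
Log2 fold change, knockout minus wild type, of the 10 genes in the 4 tables, as diamonds with SE over 3 libraries a group, circles for library A alone and squares for libraries B and C. Bmp4 lies left of 0 in all 4 panels, but in Dicer introns it is under the filter and its groups overlap. Id2 lies right of 0 in all 4, with groups that overlap in the Dgcr8 pair. Bmp8b lies right of 0 in Dicer exons and left of 0 in Dgcr8 exons.

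The other genes of the pathway, on a list drawn up with earlier results of these data known, were tested with limma over all genes. Of 62 listed genes, 42 passed the filter in Dicer exons, and limma and limma-voom called 0 at an adjusted p under 0.05 (4 in limma at an unadjusted p under 0.05). Over all genes 1.03% were called higher and 0.228% lower in Dicer1-/-. The 42 had 24 values above 0 and 18 below, with a median log2 fold change of 0.29, against -0.01 over all genes. Of the same list 45 passed in Dgcr8 exons, 1 was called higher and 1 lower (14 at an unadjusted p under 0.05), beside 0.779% and 0.551% of all genes. Of the 45, 14 were above 0 and 31 below, with a median of -0.47, against -0.08 over all genes.

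The gene called higher in Dgcr8-/- was Gdf3, a ligand of the TGF-β superfamily that is abundant in ESCs (chromosome 6, 122605403 to 122610087, minus strand; ENSMUSG00000030117). It had 5474, 4225 and 4808 normalised exonic reads in Dgcr8-/-, against 1836, 1654 and 1364 in V6.5 (log2 fold change 1.58, SE 0.25, limma adjusted p = 0.0373, 0.000464 to 0.218 over the alternatives). The Dicer pair gave 5128, 4831 and 5932 in Dicer1-/- and 3052, 3399 and 3839 in TFC, also without overlap but not called (0.63, SE 0.22, limma adjusted p = 0.236, 0.0201 to 0.658 over the alternatives). A term for library set, A against B and C, turned this into a call (limma adjusted p = 0.0201). The gene called lower was Bmp1, a protease that cleaves procollagens and the BMP antagonist chordin and is no BMP ligand (chromosome 14, 70474558 to 70520234, minus strand; ENSMUSG00000022098). It had 69.3, 12.4 and 22.4 reads in Dgcr8-/-, against 399, 763 and 333 in V6.5 (-4.06, SE 0.74, limma adjusted p = 0.0498, 0.00223 to 0.266 over the alternatives). Without library B or C of either group neither gene was called: limma's adjusted p was 0.19, 0.194, 0.218 and 0.176 for Gdf3 and 0.217, 0.205, 0.266 and 0.193 for Bmp1 without Dgcr8-/- B, Dgcr8-/- C, V6.5 B and V6.5 C. Without V6.5 library A, Bmp1 had an adjusted p of 0.0625 by limma. With no variance trend the adjusted p was 0.0766 for Gdf3 and 0.0655 for Bmp1, and with limma-voom 0.0567 and 0.0833.

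**Figure D5:**
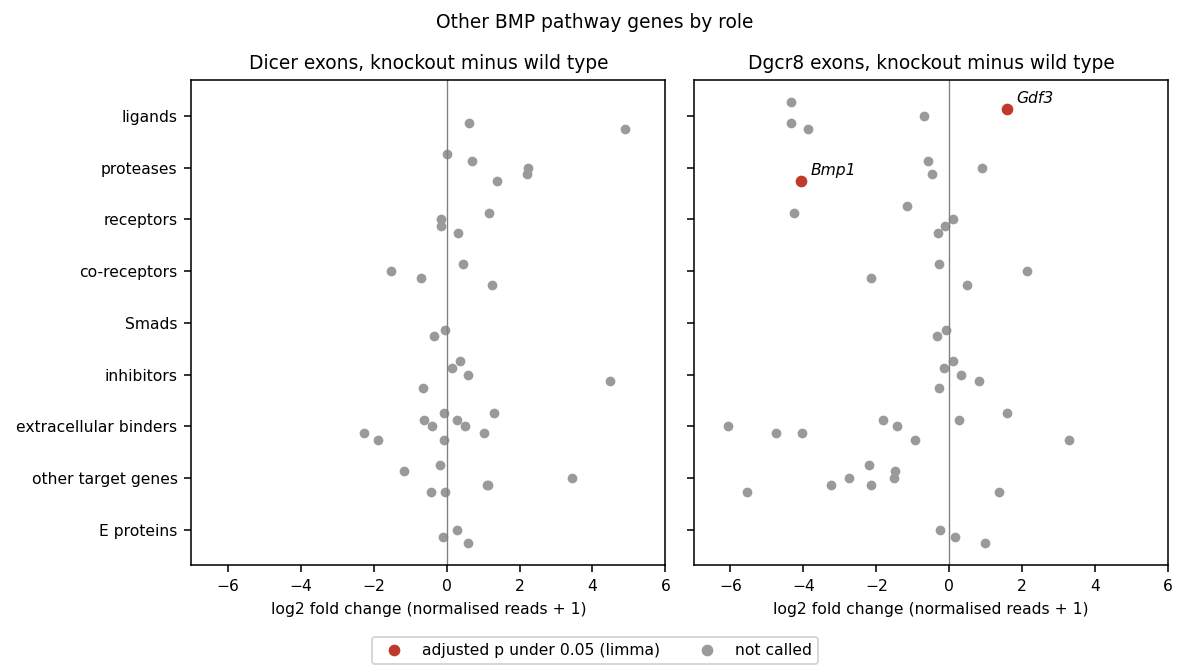
Log2 fold change, knockout minus wild type, of the other BMP pathway genes that passed the filter, 1 point a gene in rows by role, Dicer exons on the left and Dgcr8 exons on the right. Red points were called by limma at an adjusted p under 0.05; Gdf3 and Bmp1 are the only ones, and both are in Dgcr8 exons.

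The other pathway genes named here were called by limma in neither pair, but a term for library set changed this for some. With it, Fstl1 and Smad6 were called higher in Dicer1-/- (limma adjusted p = 0.00131 and 0.0493). Over all genes the same term called 1604 of 13153 in Dicer exons and 2161 of 12705 in Dgcr8 exons. Of the listed genes that passed the filter it called 3 of 42 in Dicer exons, Gdf3 among them. In Dgcr8 exons it called 11 of 45, 4 higher and 7 lower. Higher were Fstl1, Pcsk6 and Tcf12 (limma adjusted p = 0.00091, 0.0263 and 0.0105), beside Gdf3. Lower were Bmp6 and Dusp9 (limma adjusted p = 0.0328 and 0.000685), beside Bmp1, Nog, Dlx3, Nbl1 and Acvrl1. Nog, an extracellular binder of ligands, averaged 6.68 exonic reads in Dgcr8-/- and 210 in V6.5 (limma adjusted p = 0.00834 with the term and 0.0799 without). Library A was set apart from these same data, so those calls rest on a split that the labels do not give. Ligand genes other than Gdf3 had low values: Bmp6, a relative of Bmp7, averaged 5.42 exonic reads in Dgcr8-/- and 60.1 in V6.5, and was at 0 in Dicer1-/-, against 16.6 in TFC. The proteases Pcsk6 and Furin, which free BMPs from their precursors, averaged 904 and 400.0 exonic reads in Dicer1-/- and 556 and 312 in TFC, and 766 and 363 in Dgcr8-/- and 431 and 376 in V6.5. Of the receptors, Acvr2b and Acvr2a, type II receptors shared with activins, averaged 2831 and 771 in Dicer1-/- and 3160 and 855 in TFC, and 2536 and 804 in Dgcr8-/- and 2368 and 719 in V6.5. Acvr1, a type I receptor for BMPs, averaged 292 in Dicer1-/- and 232 in TFC, and 208 in Dgcr8-/- and 265 in V6.5.

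The co-receptors Eng, Rgmb and Rgma averaged 290, 164 and 61.8 exonic reads in Dicer1-/-, against 224, 107 and 41.7 in TFC, and 263, 141 and 179 in Dgcr8-/-, against 177, 153 and 31.5 in V6.5. Smad5 and Smad4, which act with Smad1, averaged 1940.3 and 1529 in Dicer1-/- against 2061 and 1928 in TFC, and 1603 and 1292 in Dgcr8-/- against 1764 and 1627 in V6.5. Among inhibitors, the ubiquitin ligases Smurf2 and Smurf1 averaged 1859 and 737 in Dicer1-/- against 1431 and 660.4 in TFC, and 1551 and 567 in Dgcr8-/- against 1451 and 619 in V6.5. Smad7, a feedback inhibitor, was highest in library A of all 4 groups, at 2235, 877 and 916 reads in Dicer1-/- against 1498, 455 and 754 in TFC, and 1398, 883 and 764 in Dgcr8-/- against 2067, 376 and 618 in V6.5.

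Of the extracellular binders of ligands, Fstl1 had 8979, 10144 and 10941 exonic reads in Dicer1-/- against 3501, 5408 and 3620.1 in TFC (log2 fold change 1.29, SE 0.26, limma adjusted p = 0.0539, 0.00131 to 0.361 over the alternatives). It had 6328, 9864 and 9089 in Dgcr8-/- against 1506, 3622 and 3967 in V6.5 (1.57, SE 0.41, limma adjusted p = 0.114, 0.00091 to 0.384 over the alternatives). Its knockout libraries stood above the wild-type ones in both pairs, but limma with no changed setting called it in neither. With libraries B and C only, chosen after seeing the data, limma called it in Dgcr8 exons (adjusted p = 0.00798). Twsg1 and Fst, which hold ligands outside the cell, averaged 2284 and 105.6 reads in Dicer1-/- against 2390 and 132 in TFC, and 1970.1 and 119 in Dgcr8-/- against 1654 and 824 in V6.5. Without TFC library A, Fstl1 and Smad6 were called in Dicer exons (limma adjusted p = 0.0411 and 0.043), and with a pseudocount of 5 Fstl1 was (limma adjusted p = 0.0489). Without V6.5 library A, Fst was called lower in Dgcr8-/- (limma adjusted p = 0.0353).

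Id4, the fourth Id gene, had 228, 261 and 58.4 exonic reads in Dicer1-/- against 273, 119 and 161 in TFC, which overlapped, and 174, 151 and 195 in Dgcr8-/- against 88.9, 50.8 and 66.9 in V6.5, which did not (log2 fold change 1.35, SE 0.52, limma adjusted p = 0.246). Dusp9, a phosphatase known as a BMP target in mouse ESCs, averaged 1157 in Dicer1-/- and 1248 in TFC, and 569 in Dgcr8-/- and 2603 in V6.5 (-2.15, SE 0.67, limma adjusted p = 0.162 in the Dgcr8 pair, and 0.0465 without Dgcr8-/- library A). The E proteins Tcf12, Tcf4 and Tcf3, which Id proteins bind, averaged 3456, 1502 and 1586 in Dicer1-/- against 2372, 1258 and 1490.4 in TFC, and 2371, 1085 and 1234 in Dgcr8-/- against 1256, 1201 and 1208 in V6.5. Tcf3 was highest in library A of all 4 groups.

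In introns 31 listed genes passed in the Dicer pair and 26 in the Dgcr8 pair. By limma, and by limma-voom, 0 were called in either (3 and 5 by limma at an unadjusted p under 0.05), beside 0.275% higher and 0.0774% lower over all genes in the Dicer pair, and 1.11% and 0.409% in the Dgcr8 pair. Bmp1 had 42.7, 3.44 and 0 intronic reads in Dgcr8-/- against 62.2, 133 and 225 in V6.5 (log2 fold change -4.42, SE 1.19, limma adjusted p = 0.085, 0.019 to 0.39 over the alternatives). Gdf3 had 218, 95.2 and 110.0 in Dgcr8-/- against 53.3, 58.0 and 32.4 in V6.5, again with no overlap and not called (limma adjusted p = 0.193).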

How the data were processed

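Per the file headers, each deposited column is the mean of 1 genotype, a signal that the authors scaled by a DESeq size factor per library. TopHat2 2.0.12, DESeq and the build mm10 come from the submitters' processing notes. Each mean is a whole-number combination of 3 steps, which gave the reads of each library. Between 99.28 and 100% of genes had 1 solution and the others were left out. All 10 genes had 1. Of the nonzero recovered numbers 60.2 to 80.4% were even, and the reason was not tested. The 10 genes, the pathway and marker lists and the rule for naming genes (all 10, each other pathway gene called, at most 3 more per role by level, and of markers the 3 highest per list) were chosen with earlier results of these data known. Other markers are named where they were called or at 0, where their groups did not overlap, or where they differed from their list. These were chosen after their values were seen. Tests used limma 3.58.1 in R 4.3.3 (variance trend, 4 residual degrees of freedom) on log2(value + 1) within a table, for genes with a mean of at least 10, with Benjamini-Hochberg adjustment over all genes. Changes of low genes are understated by the added 1. The recovery and the fit were tested on simulated data. The planned test on libraries needed this recovery. No 2 libraries agreed within sampling noise (chi-square per gene at least 14.4). Libraries carry no replicate number and may share a culture, so p-values measure only the spread between these libraries. With 3 libraries a side, the smallest p of an exact permutation test is 0.1. Alternatives were other pseudocounts, filters and variance settings, limma-voom, a library-set term and left-out libraries.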

Additional observations from a re-analysis of the deposited data

Results flagged for a closer look

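Bmp8b differed in opposite directions in the 2 pairs, with no overlap in either: its log2 fold change in Dicer exons minus that in Dgcr8 exons was 4.4. Gata3, a transcription factor among the listed BMP target genes, did the same, with 80.5, 74.97 and 50.5 normalised exonic reads in Dicer1-/- against 6.42, 2.501 and 8.63 in TFC, and 56.7, 20.2 and 24.0 in Dgcr8-/- against 127, 88.9 and 57.4 in V6.5, a difference of 4.92. Gata3 was named after its values were seen, and limma called it in neither pair (adjusted p = 0.274 and 0.374). In both cases the difference between the pairs was not tested, since the 2 tables were normalised separately.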

How the results depend on the processing

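No paired analysis was possible because the deposited columns are group means and the recovered libraries carry no replicate numbers to pair by. The library-set term below sets A against B and C, a split read from the data. Genes called over all genes in Dicer exons, 165 by limma, were 35 with no variance trend, 21 with limma-voom, 1604 with a term for library set, 61 with libraries B and C only (chosen after seeing the data), and 0 to 483 with 1 library left out (0 without Dicer1-/- B, Dicer1-/- C or TFC C, with 1218, 1152 and 1510 at an unadjusted p under 0.05). In Dgcr8 exons 169 became 48 with limma-voom, 2161 with the library-set term, 2018 with B and C only, and 0 to 463 with 1 library left out (0 without Dgcr8-/- B, Dgcr8-/- C, V6.5 B or V6.5 C, with 1325, 1433, 1266 and 1496 at an unadjusted p under 0.05). In Dicer introns 41 became 72 with a pseudocount of 5, 1 with no trend, 64 with limma-voom, 91 with the library-set term, 0 with B and C only (1163 unadjusted), and 0 to 37 with 1 left out (0 without Dicer1-/- B, 739 unadjusted). In Dgcr8 introns 163 became 272 with a pseudocount of 5, 107 with no trend, 451 with the library-set term, and 26 to 176 with 1 left out. Other pathway genes called in Dicer exons were 0, or 1 with a pseudocount of 5, 3 with the library-set term and 0 to 2 with 1 left out (2 without TFC A). In Dgcr8 exons they were 2, or 1 with a pseudocount of 0.5, 0 with no trend, 0 with limma-voom, 11 with the library-set term, 12 with B and C only, and 0 to 6 with 1 left out (6 without Dgcr8-/- A). In Dgcr8 introns they were 0, or 1 with a pseudocount of 5, 1 with the library-set term and 0 to 1 with 1 left out (1, Bmp1, without Dgcr8-/- A). With bases 2 to 7 and an A opposite base 1 as the match, 0 genes matched miR-294 and miR-302 and 0 let-7. There were 2 for miR-17 (Bmp2 and Id1) and 3 for miR-26 (Bmp8b, Bmpr1a and Bmpr2). Over the 17855 genes with a 3′ untranslated region, 7.36% held this match to miR-294 and miR-302 and 10.8% to let-7. The miR-17 match was in 12.1% and the miR-26 match in 15%. These shares take no account of length, and Bmpr2 and Bmpr1a have 8529 and 3810 bases. Of the 10 genes, 2 changed the sign of their log2 fold change under some alternative in Dicer exons, 4 in Dgcr8 exons, 4 in Dicer introns and 5 in Dgcr8 introns, and 1 more went to 0 in each table but Dgcr8 exons. Those that kept their sign in Dicer exons were Bmp4, Bmp8b, Bmpr2 and Id2 (-6.25 to -4.21, 0.79 to 2.18, 0.86 to 1.12 and 1.52 to 2.26), with Bmpr1a, Smad1 and Id1. In Dgcr8 exons they were Bmp4 and Bmp8b (-4.87 to -3.74 and -3.02 to -2.01), with Bmp2, Bmp7, Id2 and Id3. Where the groups did not overlap, leaving out or splitting libraries could not turn the sign. The causes of the changes between settings were not tested.

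Depth and 3 libraries a group limit what can be read: intronic reads and the ligand genes are low.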
